A study of Mus musculus with 6 samples.

Results

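A set of 39 genes of fatty acid, triglyceride and cholesterol synthesis was followed in sorted cells from mouse mammary tumours. The set held 21 genes that make, modify or esterify fatty acids, 13 genes of sterol synthesis and transport, and 5 regulators that act on both branches. The genes are 39 of the 18193 named by a single symbol on the array, and each was read from the probe set with the highest mean log2 level over all 6 arrays. That mean is the only measured value in the rule, and it ignores the population, but the genes themselves were chosen by an earlier look at their differences between the populations on these same arrays, so these differences are given as a description. The tumours came from 3 MMTV-Wnt-1 mice, numbered 1 to 3, whose Wnt1 transgene is driven in mammary epithelium by the promoter of the mouse mammary tumour virus, so all 6 samples carry it; for age and strain background, the sources used here give nothing. Cells were sorted by fluorescence into a population labelled tumorigenic, CD24+Thy+CD45-, and a population labelled nontumorigenic, described as not CD24+Thy+CD45-. Each population of each mouse was hybridised to 1 Affymetrix array after RNA amplification, which gave 3 arrays against 3. The study set the populations against each other to derive a signature of the tumorigenic cells, and the question here is how the lipid synthesis genes are placed in that comparison.

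Cells build fatty acids from cytosolic acetyl-CoA, which comes from citrate or from acetate, by way of acetyl-CoA carboxylase and fatty acid synthase. Desaturases and elongases then modify the chains, and acyltransferases join them to glycerol to form triglyceride. Cholesterol is made from the same acetyl-CoA through mevalonate, farnesyl pyrophosphate and squalene. The transcription factors encoded by Srebf1 and Srebf2 activate both branches; Scap escorts them out of the endoplasmic reticulum when sterols are low, and the Insig proteins hold them back. In the mammary gland these genes are known for supplying milk fat during lactation, and lipogenesis is a familiar feature of luminal secretory cells.

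The labels were checked against sort and cell type markers first. Ptprc, which encodes CD45, read 10.21, 7.76 and 3.82 (log2 level) on the tumorigenic-labelled arrays of mice 1 to 3 and 2.33, 3.59 and 2.51 in those labelled nontumorigenic, against a gate that excluded CD45, so the populations are called by their labels throughout. Cd24a, the CD24 gene, read 11.85, 12.34 and 12.84 against 12.86, 12.84 and 12.99, lower in the population sorted as CD24+ in all 3 mice (difference -0.55, SE 0.27; limma adjusted p = 0.634). Thy1 divided the mice, with differences of 0.58, 0.84 and -0.72, so neither positive gate marker followed the labels. The summed log2 level of 15 macrophage and leukocyte markers lay between 89.07 and 160.8 on the tumorigenic-labelled arrays and between 66.61 and 67.71 in the others, with mouse 1 the highest. The Gapdh control probe set at the 3' end exceeded the one at the 5' end by 6.60 log2 units in the tumorigenic-labelled array of mouse 2 and by 2.41 to 3.81 in the other 5 arrays. The 18S ribosomal RNA control read 7.76, 6.32 and 7.38 on the tumorigenic-labelled arrays and 8.97, 8.52 and 8.66 on the others. It did not overlap between the populations and differed by -1.21, -2.2 and -1.29 within mice 1 to 3; its part in the lipid gene values was not tested. The leading results are also given without the tumorigenic-labelled arrays of mice 1 and 2. In bulk RNA, fewer cells of a type and less RNA per cell cannot be told apart.

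Most lipid genes differed little between the populations, and an absolute log2 difference above 1 was about as common among them as among all genes. Of the 39 genes, 26 had a lower and 13 a higher mean in the population labelled tumorigenic, with a median log2 difference of -0.25; over all 15027 genes tested, 49.3% had a lower mean and 50.7% a higher one, and the median was 0.0050. An absolute log2 difference above 1 was found for 3 of the 39, namely Thrsp, Acss1 and Dgat2, against 6.85% of all genes. The arrays of the populations did not overlap for 9 of the 39, 8 lower and 1 higher, where 12.5% of all genes did not overlap, 5.59% as lower and 6.9% as higher. In limma with Benjamini-Hochberg adjustment over all genes, 0 of the 39 passed at 0.05, as did 0 of all genes, or 0% of them, and the smallest adjusted p of a lipid gene was 0.22, for Thrsp. When the mouse 3 array labelled tumorigenic was left out, 18 of all genes and 0 of the 39 passed. At an unadjusted limma p below 0.05 there were 6 of the 39 and 8.5% of all genes.

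**Figure D1:**
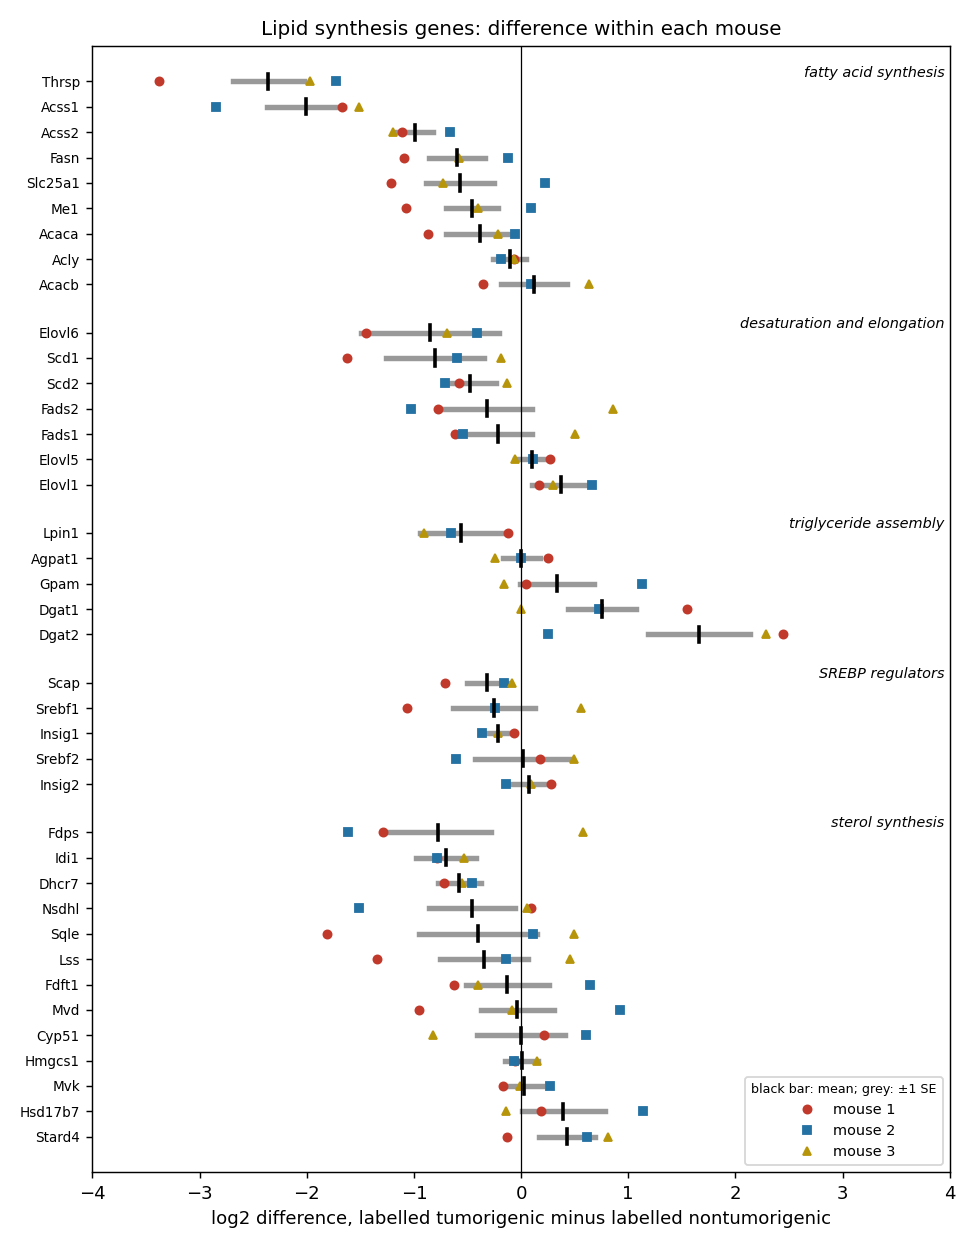
Log2 difference (labelled tumorigenic minus labelled nontumorigenic) of each of the 39 genes, arranged by role and sorted within a role; coloured symbols are the 3 mice, the black bar is the mean and the grey bar ±1 SE from limma. Thrsp and Acss1 lie lowest at -2.36 and -2.01, Dgat2 lies highest at 1.66, and most sterol genes scatter about 0 with mice on both sides.

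Among the 9 genes of acetyl-CoA supply and fatty acid synthesis, 8 had a lower mean in the population labelled tumorigenic and 1, Acacb, a higher one, with a median of -0.57. Within mice 1, 2 and 3 the medians were -1.09, -0.12 and -0.58, and 6 of the 9 genes were lower in all 3 mice, against 14.3% of all genes. Thrsp encodes a small lipogenic protein, also called Spot 14, that is abundant in fat, liver and lactating mammary gland. Thrsp read 6.85, 7.61 and 7.34 on the tumorigenic-labelled arrays of mice 1 to 3 and 10.23, 9.34 and 9.31 in those labelled nontumorigenic. Every array of the first population was thus below every array of the second, by 1.70 log2 units or more where they came closest. Mean levels were 7.27 ± 0.38 against 9.63 ± 0.53 (SD, n = 3 each). The log2 difference was -2.36 (SE 0.33, 95% interval -3.17 to -1.55), or 5.13-fold lower.

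The acetate-activating enzymes stood beside Thrsp. Acss1, which makes acetyl-CoA from acetate in mitochondria, read 8.15, 7.15 and 8.51 on the tumorigenic-labelled arrays and 9.82, 9.99 and 10.02 in the others. The nontumorigenic arrays were tightly placed and the tumorigenic-labelled array of mouse 2 was the lowest of all. Its log2 difference was -2.01 (SE 0.36), or 4.03-fold lower. Acss2, the cytosolic and nuclear enzyme of the same reaction, read 7.78, 7.98 and 7.73 against 8.89, 8.64 and 8.92. Both populations were narrow, with SDs of 0.13 and 0.15 (n = 3 each), and the difference was -0.99 (SE 0.17), or 1.99-fold lower. The limma adjusted p was 0.247 for both enzymes.

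On the chosen probe sets, the core of the pathway showed smaller differences. Fasn, the fatty acid synthase itself, differed by -0.60 (SE 0.26) and was lower in all 3 mice, but its populations overlapped. Acaca and Acacb, the carboxylases that make malonyl-CoA for synthesis and for the control of oxidation, differed by -0.38 (SE 0.32) and 0.12 (SE 0.31). Acly, which splits citrate into acetyl-CoA, differed by -0.11, with a 95% interval from -0.49 to 0.27. The citrate carrier Slc25a1 and the NADPH-supplying malic enzyme Me1 had differences of -0.57 and -0.46, lower in mice 1 and 3 and higher, by 0.23 and 0.09, in mouse 2. The 95% intervals of Acly, Slc25a1 and Me1, which serve the citrate route to acetyl-CoA, include 0. The same holds for Fasn, Acaca and Acacb. A difference between the citrate and acetate routes was not tested.

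**Figure D2:**
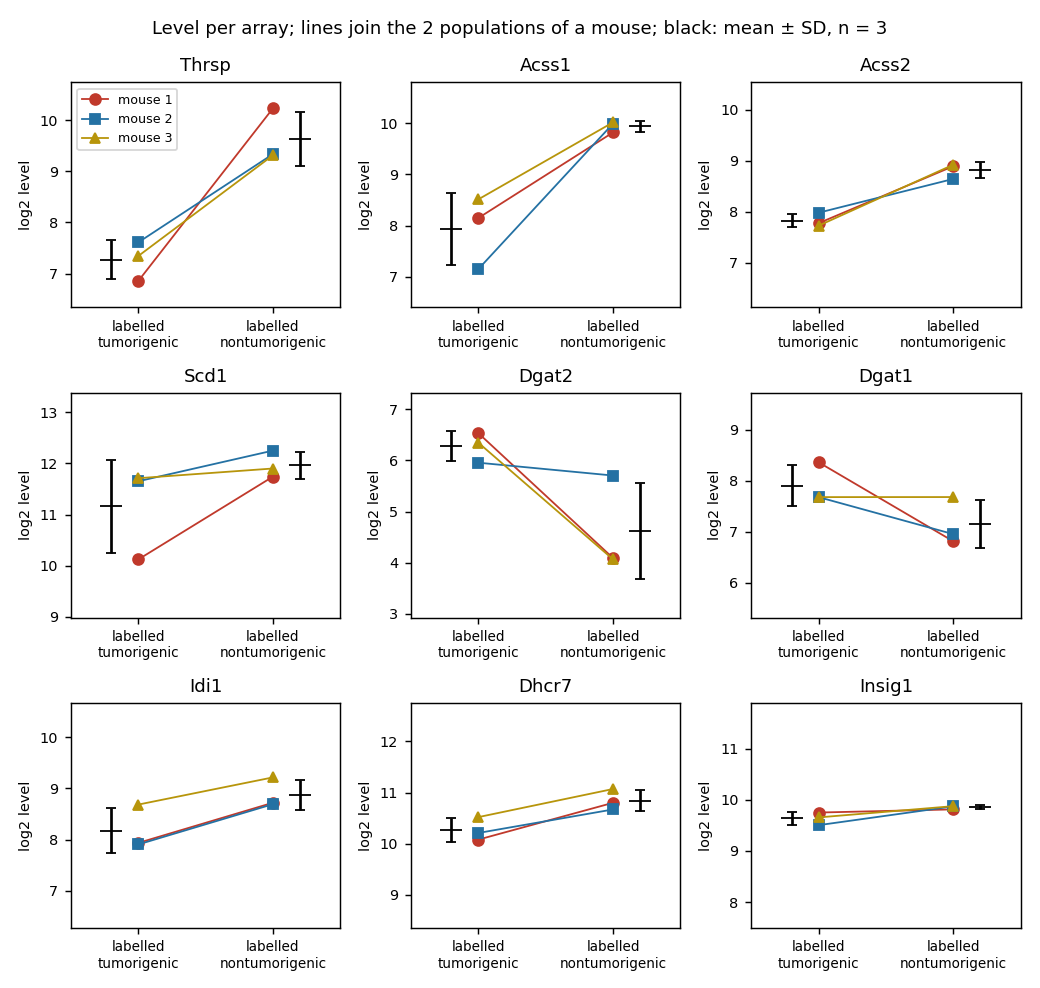
Log2 level of 9 genes on each array, with a line joining the populations of a mouse and black marks for mean ± SD (n = 3 each); every panel spans the same number of log2 units. Thrsp, Acss1 and Acss2 step up toward the population labelled nontumorigenic in each mouse, Dgat2 steps down steeply in mice 1 and 3 and little in mouse 2, and Insig1 is nearly level.

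The upstream sequences of Thrsp, Acss1 and Acss2 are shown because these genes had the most negative differences of the fatty acid branch. Each line gives the 250 bases before the transcript start annotated in RefSeq (GRCm38.p6), 5' to 3' on the gene's strand. In all, 3 motifs were searched on both strands: the core of the sterol regulatory element bound by SREBP, TCACNCCAC; the E-box CACGTG, which SREBP-1 can also bind; and the CCAAT box of the factor NF-Y, a known partner of SREBP. Capitals mark a CCAAT box, read as ATTGG where it lies on the other strand. Thrsp is at chr7:97417551-97417800 on the minus strand, Acss1 at chr2:150668241-150668490 on the minus strand and Acss2 at chr2:155517793-155518042 on the plus strand.
Thrsp: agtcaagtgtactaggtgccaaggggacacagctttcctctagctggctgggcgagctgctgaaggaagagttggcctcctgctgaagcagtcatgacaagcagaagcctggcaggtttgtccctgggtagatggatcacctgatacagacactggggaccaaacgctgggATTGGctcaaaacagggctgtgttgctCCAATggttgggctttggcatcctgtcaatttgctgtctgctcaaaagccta
Acss1: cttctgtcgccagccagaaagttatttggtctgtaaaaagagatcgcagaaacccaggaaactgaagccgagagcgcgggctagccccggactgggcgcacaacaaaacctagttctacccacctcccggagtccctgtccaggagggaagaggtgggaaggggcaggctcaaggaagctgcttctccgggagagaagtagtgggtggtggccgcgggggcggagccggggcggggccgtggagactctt
Acss2: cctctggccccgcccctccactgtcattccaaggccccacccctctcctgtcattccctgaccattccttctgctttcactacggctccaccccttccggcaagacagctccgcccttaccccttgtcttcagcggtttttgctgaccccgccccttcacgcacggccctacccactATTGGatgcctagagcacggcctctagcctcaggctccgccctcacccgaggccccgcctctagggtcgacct
Thrsp holds 2 CCAAT boxes, beginning 79 and 52 bases before the start, Acss2 holds 1, beginning 73 bases before it, and the Acss1 window holds none of the 3 motifs. A CCAAT box occurred in 33.9% of the 32851 windows of the table. Counted by gene, 37.5% of its 27025 genes had a CCAAT box in at least 1 window, 6.86% an E-box and 1.22% the sterol element core. Of the 39 lipid genes, 30 had a window, and among the 16 of the fatty acid and triglyceride branch 10 had a CCAAT box, 2 an E-box and 0 the sterol element core in at least 1 window. A match says only that the letters are present. Its absence says only that these exact letters are missing from the 250 bases searched.

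Desaturases and elongases mostly had lower means too, with smaller values on the chosen probe sets. Of 7 genes, 5 had a lower mean, and the median was -0.31, or -0.62, -0.54 and -0.06 in mice 1 to 3. Scd1, the stearoyl-CoA desaturase that makes oleate, read 10.12, 11.65 and 11.71 on the tumorigenic-labelled arrays and 11.74, 12.25 and 11.90 in the others. On this probe set the populations were separated by only 0.03 log2 units at their closest. The value of mouse 1 set the size of the difference there, -0.80 (SE 0.46) with all arrays and -0.28 without its tumorigenic-labelled array. A further, dimmer Scd1 probe set was lower in each mouse, at -2.63, -1.17 and -1.07 in mice 1 to 3, without overlap. Scd2, the paralogue of Scd1, differed by -0.48 (SE 0.24) and was lower in all 3 mice. The further Scd2 probe sets gave -0.93 and -1.47, each lower in all 3 mice and without overlap. Elovl6, which elongates palmitate, differed by -0.85 (SE 0.65), or -0.18 without the tumorigenic-labelled array of mouse 1. The polyunsaturated fatty acid desaturases Fads1 and Fads2 divided the mice: their differences were -0.62 and -0.78 in mouse 1, -0.54 and -1.02 in mouse 2, and 0.50 and 0.86 in mouse 3. Elovl5, the elongase of the same polyunsaturated route, differed by 0.11, and Elovl1, which makes very long saturated chains, by 0.37 (SE 0.27) with higher values in all 3 mice.

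Of the 5 genes of triglyceride assembly, 4 had a higher mean in the population labelled tumorigenic, Agpat1 by no more than 0.002, but 4 of the 5 were lower in mouse 3. The difference from fatty acid synthesis was not tested, and the median was 0.34, with 0.25, 0.25 and -0.16 in mice 1 to 3. Dgat2, one of the enzymes that add the last acyl chain, read 6.53, 5.96 and 6.35 on the tumorigenic-labelled arrays and 4.09, 5.70 and 4.07 in those labelled nontumorigenic. The populations did not overlap, but the nontumorigenic array of mouse 2 lay within 0.25 log2 units of the tumorigenic-labelled array of the same mouse. The log2 difference was 1.66 (SE 0.48, 95% interval 0.49 to 2.82; limma adjusted p = 0.466), or 3.16-fold higher. Dgat1, the other enzyme of that step, read 8.36, 7.68 and 7.68 against 6.82, 6.96 and 7.68, a difference of 0.76 (SE 0.31) that was 1.54 in mouse 1 and -0.0008 in mouse 3. Gpam, the mitochondrial acyltransferase of the first step, differed by 0.34 (SE 0.35), and Agpat1, of the second, by 0.002 (SE 0.17). Lpin1, the phosphatidate phosphatase that supplies diacylglycerol, had a lower mean, with a difference of -0.56 (SE 0.38), and was lower in all 3 mice.

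Among the 5 regulators, 2 did not overlap between the populations, Scap and Insig1, where 12.5% of all genes did not, and these were also the 2 with lower values in all 3 mice, against 14.3%. Srebf1 read 8.01, 9.09 and 9.38 on the tumorigenic-labelled arrays and 9.08, 9.33 and 8.81 in the others, a difference of -0.25 with a 95% interval from -1.18 to 0.68. Srebf2 read 8.26, 7.86 and 9.44 against 8.08, 8.47 and 8.94, a difference of 0.02 with an interval from -1.08 to 1.13. For both factors the arrays of the populations were interleaved, and the highest value of each was the tumorigenic-labelled array of mouse 3. The escort Scap read 7.69, 8.16 and 8.16 against 8.41, 8.32 and 8.25. Scap did not overlap, with a gap of 0.08 log2 units, and differed by -0.32 (SE 0.19). Insig1, both a target and a brake of the pathway, read 9.75, 9.51 and 9.66 against 9.81, 9.87 and 9.88. It did not overlap either, but its difference was small at -0.22 (SE 0.15). Insig2, the less sterol-responsive form, read 7.86, 7.30 and 7.65 against 7.58, 7.44 and 7.56, a difference of 0.08 (SE 0.19). Intervals of this width do not show that the factors were equal in the populations.

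Sterol synthesis genes lay close to 0 as a list, with a median difference of -0.13 and medians of -0.63, 0.11 and -0.01 in mice 1, 2 and 3. Of 13 genes, 9 had a lower and 4 a higher mean, and 2, Idi1 and Dhcr7, were lower in all 3 mice, near the 14.3% of all genes. Idi1, the isomerase that activates the isoprene unit, read 7.93, 7.90 and 8.68 on the tumorigenic-labelled arrays and 8.72, 8.69 and 9.22 in the others. Its populations were separated by 0.0086 log2 units, and mouse 3 was the highest in both. The difference was -0.70 (SE 0.28). Dhcr7, which reduces 7-dehydrocholesterol in the last step to cholesterol, read 10.08, 10.21 and 10.52 against 10.80, 10.67 and 11.07, without overlap, a difference of -0.57 (SE 0.20). The limma adjusted p values were 0.584 and 0.532.

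The remaining sterol genes had mice on both sides of 0 on their chosen probe sets. Hmgcs1, which opens the mevalonate pathway, differed by 0.008 with an interval from -0.37 to 0.38, and the mevalonate kinase Mvk and decarboxylase Mvd by 0.03 and -0.04. Fdps, which makes farnesyl pyrophosphate, differed by -0.77 (SE 0.50), with -1.29 and -1.61 in mice 1 and 2 and 0.58 in mouse 3. The squalene-forming and squalene-using enzymes Fdft1, Sqle and Lss had differences of -0.13, -0.40 and -0.35. Sqle and Lss were lowest of all arrays in the tumorigenic-labelled array of mouse 1, and without it the values became 0.18 and -0.12. Of the enzymes that trim lanosterol, Cyp51 differed by -0.0007, Nsdhl by -0.46 and Hsd17b7 by 0.39. The Nsdhl and Hsd17b7 values came mainly from mouse 2, at -1.52 and 1.14. Stard4, a sterol carrier of the cytosol, differed by 0.43 (SE 0.26).

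The windows of Idi1 and Hmgcs1 are shown as sterol genes with and without a separation between the populations. Idi1 is at chr13:8885356-8885605 and Hmgcs1 at chr13:119690101-119690350, both on the plus strand of GRCm38.p6, and capitals mark CCAAT boxes and, in Hmgcs1, the sterol element core.
Idi1: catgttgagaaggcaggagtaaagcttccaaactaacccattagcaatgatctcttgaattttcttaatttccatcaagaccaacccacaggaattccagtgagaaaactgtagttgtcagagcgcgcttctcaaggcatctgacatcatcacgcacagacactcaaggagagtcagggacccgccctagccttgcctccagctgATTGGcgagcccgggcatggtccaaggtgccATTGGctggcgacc
Hmgcs1: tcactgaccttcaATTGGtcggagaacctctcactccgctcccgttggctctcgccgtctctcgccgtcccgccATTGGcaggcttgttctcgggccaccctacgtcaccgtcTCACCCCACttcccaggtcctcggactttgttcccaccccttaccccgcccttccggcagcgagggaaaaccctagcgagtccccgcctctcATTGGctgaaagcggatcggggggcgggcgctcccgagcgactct
Idi1 holds 2 CCAAT boxes and Hmgcs1 holds 3, and the element in Hmgcs1 begins 137 bases before the start. All 9 sterol genes with a window had a CCAAT box in at least 1 of their windows, 1 had the sterol element core and 2 had an E-box. Over all 27025 genes of the table, 37.5% had a CCAAT box, 1.22% the core and 6.86% the E-box.

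Set side by side, the branches differed by little. The median of the 21 fatty acid and triglyceride genes was -0.38 and that of the 13 sterol genes -0.13, a gap of -0.26 log2 units. Within mice 1, 2 and 3 this gap was 0.006, -0.23 and -0.17. In mouse 1 both branches were thus about equally low, at -0.62 and -0.63, and in mouse 3 the medians were -0.18 and -0.01. Leaving out the nontumorigenic array of mouse 2 turned the gap to 0.04, and without both arrays of mouse 2 it was -0.003. Without both arrays of mouse 3 it was -0.43. The gap between the branches thus depended on which mice were kept. Thrsp, Acss1 and Acss2 were lower in each mouse, as were 14.3% of all genes, and these 3 were singled out by the same differences.

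**Figure D3:**
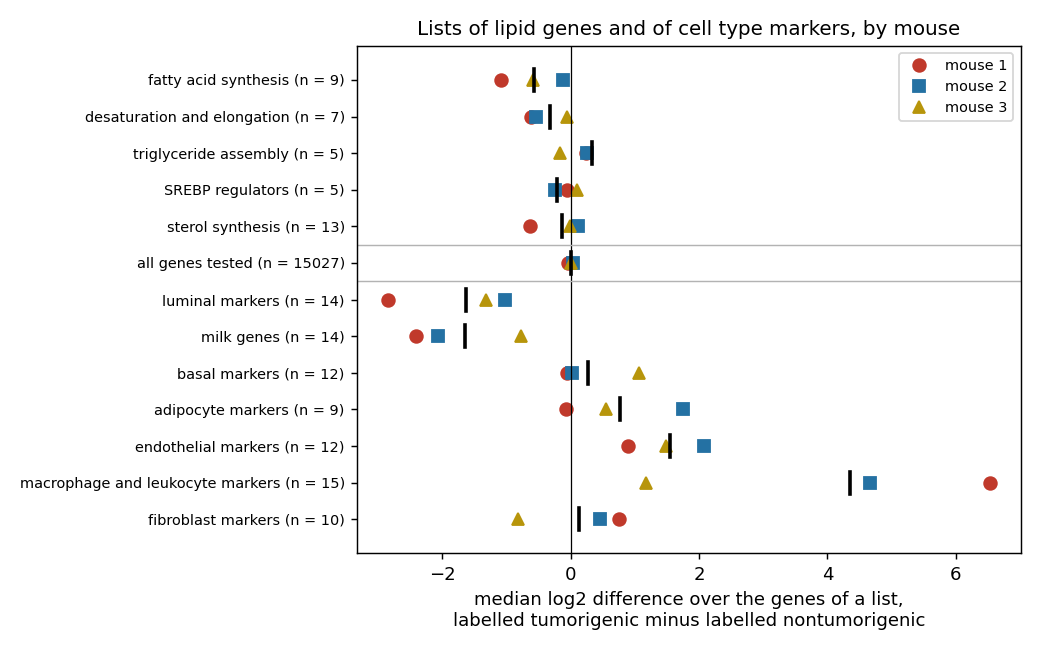
Median log2 difference (labelled tumorigenic minus labelled nontumorigenic) over the genes of each list, for each mouse (symbols) and for the means over mice (black bars); the middle row holds all 15027 genes. The black bars of the 5 lipid lists lie between -0.57 and 0.34 and those of the luminal and milk lists lie lower; single mice spread further, to -1.09 for fatty acid synthesis in mouse 1, and the macrophage and leukocyte list reaches 6.54 in mouse 1.

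The tumorigenic-labelled array of mouse 1 stood apart for these genes. It was the lowest of the 6 arrays for 18 of the 39 genes, 46.2%, against 24.5% of all genes. In triglyceride assembly it was the highest array for 4 of 5 genes, against 16.5% of all genes. Without this array the median of the fatty acid and triglyceride genes was -0.12 and that of the sterol genes 0.13, so the sterol list changed sign. When the tumorigenic-labelled array of mouse 2 was left out, whose Gapdh end difference was large, the medians were -0.36 and -0.23. Without the first of these arrays 7 of the 39 genes had a difference of the other sign: Srebf1 came to 0.16, Insig2 -0.05, Sqle 0.18, Fdft1 0.16, Mvd 0.19, Cyp51 0.15 and Agpat1 -0.12, while Acaca came to -0.05. Without the second, 2 did, Acacb at -0.03 and Mvk at -0.07. The differences of Thrsp, Acss1 and Acss2 were -2.15, -2.12 and -0.96 without the first of these arrays and -2.53, -1.62 and -1.07 without the second, and those of Dgat2 were 1.53 and 1.82.

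Cell type markers also differed along the labels and are given beside these values. Luminal epithelial markers were lower in 13 of 14 genes, with medians of -2.85, -1.03 and -1.32 in mice 1 to 3, and their summed level was 81.65 to 102.3 on the tumorigenic-labelled arrays and 114.9 to 118.8 in the others. Milk genes were lower in 12 of 14 genes, with a median of -1.64 and sums of 109.3 to 119.8 against 127.6 to 147 over 15 genes with a value. Adipocyte markers were higher in 7 of 9 genes, with medians of -0.07, 1.75 and 0.56 and sums of 50.29 to 71.77 against 45.77 to 46.28 over 10 genes; Lep was below the dim threshold of 2.98 on every nontumorigenic array. Macrophage and leukocyte markers were higher in 14 of 15 genes, endothelial markers in 12 of 12, with sums of 87.48 to 95.61 against 69.49 to 76.72. Basal epithelial markers had a median of 0.27 and sums of 111.9 to 124 against 109.9 to 114.9, and fibroblast markers a median of 0.14 and sums of 92.96 to 109.9 against 100.8 to 103.9, so both lists overlapped. The part of these cell types in the lipid gene values was not tested.

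Of the 39 genes, 31 had at least 1 further probe set above the dim threshold, 50 in all, and 37 of these had the sign of the chosen one. All further probe sets had that sign for 20 of the 31 genes. For Thrsp the others gave -1.37 and -0.79, and for Acss2 the other gave -0.57. For Acss1 the others gave -0.55 and 0.01, both far dimmer than the chosen one, so its size rests on 1 probe set. Dgat2 and Dgat1 gave 0.24 and 0.07 on their other probe sets, and the size of both differences likewise rests on the chosen ones. Hsd17b7, at 0.39 on its chosen probe set, gave -0.54 and -0.06 on the further ones. Cyp51, at -0.0007 on its chosen one, gave 0.52 and 0.19. Agpat1, Srebf2, Mvk and Acacb, higher on their chosen ones, gave -0.58, -0.43, -0.17 and -0.008. Further probe sets had differing signs for Hmgcs1 (-0.68 to 0.28), Elovl1 (-0.17 to 0.46), Fads2 (-0.39 to 0.40) and Fdft1 (-0.50 to 0.03). Several genes had larger differences on another probe set than on the chosen one. Among them were Scd1, Scd2, Me1 and Lss, reaching -1.62, -1.47, -1.24 and -1.54. Acaca, Scap and Fdft1 reached -0.95, -0.77 and -0.50. The further Me1 probe set was lower in each mouse, at -0.13 in mouse 2.

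**Figure D4:**
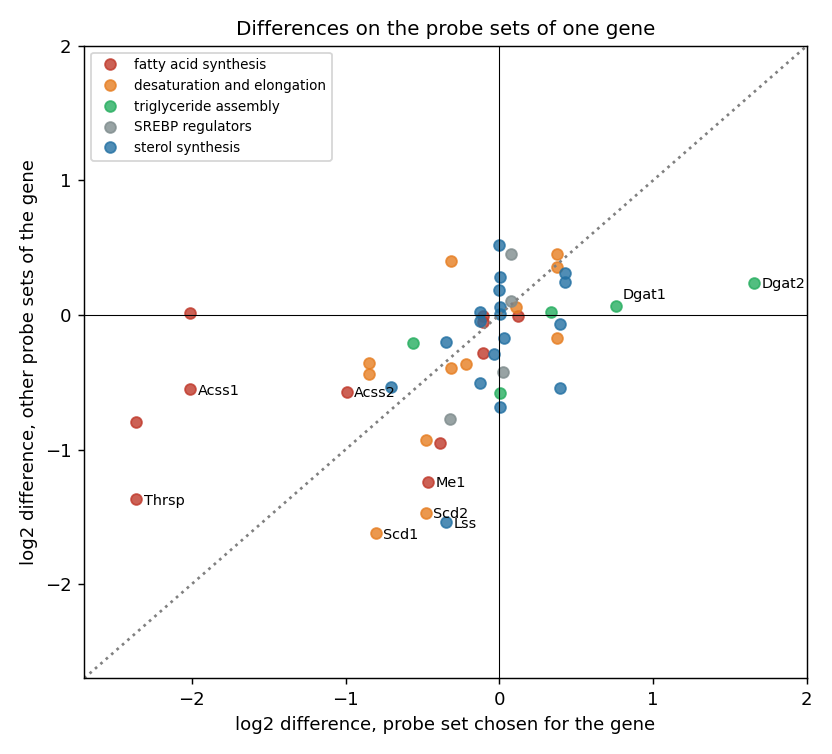
Log2 difference (labelled tumorigenic minus labelled nontumorigenic) of each further probe set above the dim threshold against that of the probe set chosen for the gene, coloured by role; the dotted line marks equal values. Of 50 points, 37 share the sign of the chosen probe set. The further Acss1 points lie at -0.55 and 0.01 and that of Dgat2 at 0.24 on the vertical axis. Scd1 and the Lss point at -1.54 lie below the line, and the Lss point at -0.20 lies above it.

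Other genes of the same pathways gave no called difference. Among 22 measured genes of fatty acid and triglyceride metabolism outside the set, 14 had a lower and 8 a higher mean, with a median of -0.10, and 0 passed in limma over all genes. Elovl7, an elongase, had the largest difference: it read 6.33, 7.22 and 8.24 on the tumorigenic-labelled arrays and 9.10, 8.43 and 9.25 in the others, which do not overlap, a difference of -1.66 (SE 0.51; limma adjusted p = 0.494). The next were Elovl4 at -0.66, with -2.15, -2.09 and 2.26 in mice 1 to 3, Lpin2 at 0.52 and Acsl3, an acyl-CoA synthetase, at -0.46. Of 11 further sterol genes 6 had a value, 4 lower and 2 higher, with a median of -0.18 and 0 passing. They ranged from -0.41 for the kinase Pmvk to 0.15 for the isomerase Ebp, with Sc5d at -0.34 and Msmo1 at -0.29. Of 7 measured lipid regulators outside the set 4 were higher and 3 lower, 0 passing, with the liver X receptor gene Nr1h3 at 0.64, the SREBP protease gene Mbtps1 at 0.29, Mlx at 0.22 and Ppargc1b at -0.21.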

How the data were processed

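Transcript levels were measured in 6 samples, 3 mice with 2 sorted populations each. The authors deposited 1 log2 level per probe set and array, made with RMA per the submitters' processing notes, which give no version. RMA forces a common distribution on all arrays, which takes out any shift that most transcripts share. The number of arrays limits the precision; replicates were separate mice. Probe sets were named from the platform annotation where it gave 1 symbol (34945 of 45101). The 25% with the lowest mean, below log2 2.98, were left out, which kept all 39 lipid genes, and 15027 genes were tested by limma 3.58.1 in R 4.3.3 (lmFit, eBayes, two-sided, Benjamini-Hochberg at 0.05, no covariate). The fit was tested on simulated data. Same-mouse arrays come from 1 animal, and their deviations from the population means correlated at 0.0792, 0.136 and 0.0864. Genes given with values on every array were those with an absolute difference above 1, without overlap, or in the regulator list; a few others were added after their values were seen. All differences are labelled tumorigenic minus labelled nontumorigenic. The genes and lists were chosen with earlier results of these data known. Promoter sequences are from RefSeq (GRCm38.p6). Alternatives covered the mouse block, filters, normalisation, priors, array weights, the probe set rule and left-out arrays or mice.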

Additional observations from a re-analysis of the deposited data

How the results depend on the processing

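None of the 39 lipid genes passed in limma under any of the 18 alternatives, with the smallest adjusted p at 0.0831 when the tumorigenic-labelled array of mouse 3 was left out. Over all genes 0 passed, also with the mouse as a replicate block (0, with 1435 genes at an unadjusted p below 0.05 against 1277). Without the dim filter 1 gene passed, Ramp2, and with probe sets of a gene averaged 1, also Ramp2; leaving out arrays or mice gave 0 to 18, the 18 without that array of mouse 3. The block changed no call. The median of the fatty acid and triglyceride genes stayed between -0.57 and -0.12 when arrays or mice were left out and between -0.56 and -0.38 otherwise. The sterol median ranged from -0.35 to 0.13 and from -0.46 to -0.13 in the same way, and the regulator median from -0.40 to -0.0502 when arrays or mice were left out. The gap between the branches was -0.10 with the probe set of highest SD, and -0.43 to 0.0384 when arrays or mice were left out; the cause was not tested. Of 663 values of single genes under alternatives, 605 kept the sign, and 23 genes kept it throughout, among them Thrsp (-2.68 to -1.51), Acss1 (-2.30 to -0.85), Acss2 (-1.15 to -0.78) and Dgat2 (0.95 to 2.36). The values of Thrsp, Acss1, Acss2 and Dgat2 nearest to 0 came from averaging a gene's probe sets. With 3 arrays a side, the 95% intervals of the 39 genes were 0.726 to 3.15 log2 units wide, with a median of 1.55, which limits what can be seen.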

Other observations

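Genes that store, release and secrete fat were read from the lists of milk and adipocyte genes. Btn1a1, which encodes the butyrophilin of the milk fat globule membrane, read 8.14, 8.32 and 9.72 (log2 level) on the tumorigenic-labelled arrays of mice 1 to 3 and 11.25, 10.46 and 10.97 in those labelled nontumorigenic. Its populations did not overlap, and the log2 difference was -2.17 (SE 0.47; limma adjusted p = 0.346). Cidea, a lipid droplet protein of brown fat and lactating mammary cells, differed by -1.44 (SE 0.51), with its value in the tumorigenic-labelled array of mouse 1 below the dim threshold of 2.98. The droplet coat protein gene Plin2 differed by 0.29 (SE 0.30), and Xdh, a further component of milk fat secretion, by -0.12 (SE 0.57). Lpl, the lipase that takes up fatty acids from circulating lipoproteins, differed by 0.36 (SE 0.42), with 0.55 and 1.32 in mice 1 and 2 and -0.80 in mouse 3.

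Lipolysis genes gave small values. The triglyceride lipase gene Pnpla2 differed by -0.34 (SE 0.23) and the hormone-sensitive lipase gene Lipe by -0.05 (SE 0.25). Pparg, the regulator of fat cell formation, differed by 0.76 (SE 0.34) and was higher in all 3 mice, at 0.57, 1.16 and 0.56, beside the adipocyte marker sums given above.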
